A study of Mus musculus with 6 samples.

Results

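The mitochondrial ribosome (mitoribosome) translates the few messenger RNAs that mitochondrial DNA encodes, all of them for core subunits of the respiratory chain and ATP synthase. Its proteins are made from nuclear genes, named Mrpl for the large subunit and Mrps for the small subunit, and are imported to be assembled on ribosomal RNAs that come from mitochondrial DNA. Many are descendants of bacterial ribosomal proteins, and the others were added in the mitochondrial lineage. Regulatory T (Treg) cells, which restrain immune responses, are known for their use of mitochondrial respiration.

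Mitoribosomal genes were taken by name, as the genes whose symbol is Mrpl or Mrps followed by a number. They were chosen by their mean level over all 6 libraries, which had to reach 1 FPKM (fragments scaled to transcript length and to all mapped fragments). Of 80 such rows, 4 carried the names of pseudogenes and were left out, and 75 of the other 76 passed the minimum, 46 Mrpl and 29 Mrps genes among 37305 genes in all and 11781 genes that reached the same minimum. The members just inside the minimum were *Mrps36* and *Mrpl35*, with means of 2.95 and 5.53 FPKM. The only gene outside it was *Mrpl23*, with 0.942 ± 0.0816 FPKM in *Junb*-deficient and 0.646 ± 0.256 FPKM in control libraries (SD, n = 3 each). The names follow the prefix and not always the particle. *Mrps30* and *Mrps18a* are known to lie in the large subunit, and *Mrps36* is known as a subunit of the 2-oxoglutarate dehydrogenase complex.

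RNA was sequenced from sorted splenic CD4+CD25+ Treg cells of C57BL/6 mice to find which transcripts depend on JunB, a subunit of the transcription factor AP-1. The *Junb*-deficient group (Cd4cre JUNBFl/Fl) held 3 libraries and the control group (JUNBFl/Fl) held 3 libraries. Both carry *Junb* flanked by loxP sites, and in the first, Cre recombinase driven by *Cd4* deletes *Junb* in all T cells and not only in Treg cells, so the Treg cells came from mice whose other T cells also lacked *Junb*. Libraries are numbered 1 to 3 within each genotype, and the cells are not stated to have been stimulated for this assay. The sources do not say whether the libraries of a group came from different mice, so p-values measure the spread between these libraries, which may be technical.

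*Junb* itself was at 180, 49.1 and 37.8 FPKM in *Junb*-deficient 1, 2 and 3, against 921, 298 and 256 FPKM in control 1, 2 and 3. It was lower within every number, and the groups did not overlap. The values hold no read counts, so the depth behind each is unknown, and FPKM totals were 528608 to 657992 in *Junb*-deficient libraries and 496684 to 862049 in control libraries. The first principal component, with 53.4% of the variance, set both libraries numbered 1 against the remaining 4. All 6 Treg markers (*Foxp3*, *Il2ra*, *Ctla4*, *Ikzf2*, *Cd4* and *Cd3e*) were found. Their summed level was 989 to 1055 FPKM in *Junb*-deficient libraries and 1111 to 1163 FPKM in control libraries. Of these, *Ctla4* is a gene that the study reported as lower in *Junb*-deficient Treg cells. The 5 activation genes summed to 1458, 390 and 273 FPKM in *Junb*-deficient 1, 2 and 3 and to 881, 396 and 260 FPKM in control 1, 2 and 3. The 4 myeloid markers summed to 28.7, 1.78 and 6.07 FPKM in *Junb*-deficient libraries and to 48.0, 2.93 and 6.91 FPKM in control libraries. The 4 B cell markers ranged over 21.7 to 51.6 FPKM in *Junb*-deficient and 24.4 to 26.7 FPKM in control libraries. The 3 dendritic markers ranged over 3.36 to 19.2 FPKM in *Junb*-deficient and 0.799 to 14.3 FPKM in control libraries, and the 3 erythroid markers over 2.08 to 5.98 FPKM in *Junb*-deficient and 1.82 to 32.7 FPKM in control libraries. The 4 CD8 T and NK markers summed to 23.2 to 34.5 FPKM in *Junb*-deficient and 24.3 to 29.1 FPKM in control libraries. Of the plasma cell markers *Jchain*, *Sdc1* and *Xbp1*, 2 were found. These summed to 47.9 to 64.5 FPKM in *Junb*-deficient and 45.1 to 63.1 FPKM in control libraries. The 3 platelet markers summed to at most 1.82 FPKM in *Junb*-deficient and 2.36 FPKM in control libraries, with *Pf4* and *Ppbp* listed at 0 in all 6. The part of these marker levels in the results was not tested.

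The stretches upstream of the 3 members that fell (*Mrps12*, *Mrpl12* and *Mrps14*, described after them) are shown first, with that of *Mrps5*, the member with the largest positive difference. They run 5′ to 3′ and end at the base before the RefSeq start of the gene, in build GRCm38.p6, which is not the build of the expression data. Capitals mark matches to AP-1 (TGANTCA), ETS (CCGGAAG), NRF1 (GCATGCG) or YY1 (AAGATGG), searched on both strands in the 250 bases before each start.
Mrps12, chr7:28741822-28741967, minus strand, cut where the neighbour Sars2 starts on the other strand: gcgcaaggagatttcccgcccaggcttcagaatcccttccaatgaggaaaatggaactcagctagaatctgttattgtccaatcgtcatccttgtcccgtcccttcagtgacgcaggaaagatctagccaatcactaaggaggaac
Mrpl12, chr11:120484387-120484636, plus strand: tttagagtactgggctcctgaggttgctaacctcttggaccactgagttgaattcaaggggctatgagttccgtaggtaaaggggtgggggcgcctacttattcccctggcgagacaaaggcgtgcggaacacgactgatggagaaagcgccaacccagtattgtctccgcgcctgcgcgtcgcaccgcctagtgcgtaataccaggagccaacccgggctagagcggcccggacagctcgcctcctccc
Mrps14, chr1:160194965-160195214, plus strand: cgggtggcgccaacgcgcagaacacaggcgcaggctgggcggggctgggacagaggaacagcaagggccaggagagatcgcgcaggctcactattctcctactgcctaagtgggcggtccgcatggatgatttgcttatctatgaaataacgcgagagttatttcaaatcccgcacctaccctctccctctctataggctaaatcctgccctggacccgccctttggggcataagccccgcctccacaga
Mrps5, chr2:127587176-127587425, plus strand: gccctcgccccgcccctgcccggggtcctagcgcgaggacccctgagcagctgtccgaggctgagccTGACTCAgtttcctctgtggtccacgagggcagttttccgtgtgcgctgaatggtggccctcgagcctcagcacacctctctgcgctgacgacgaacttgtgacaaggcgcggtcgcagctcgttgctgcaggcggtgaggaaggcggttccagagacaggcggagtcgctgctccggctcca

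None of the 4 motifs was matched in the printed stretches of *Mrps12*, *Mrpl12* and *Mrps14*. A YY1 match in the searched window of *Mrps12* begins 198 bases before its start, in the part not printed. The stretch of *Mrps5* held 1 AP-1 match, the motif JunB binds with its partners. A window was found for 66 of the 75 members. In it, ETS was matched in 17 members (25.8%), against 7.83% of 27025 genes with a window, and NRF1 in 8 members (12.1%), against 3.43% of genes. ETS factors such as GABP and the factor NRF1 are known regulators of nuclear genes for mitochondrial proteins. YY1 was matched in 6 members (9.09%), against 5.18% of genes. AP-1 was matched in 3 members, *Mrps5*, *Mrps25* and *Mrpl33* (4.55%), against 7.82% of genes. The 27025 genes were not limited to those that reached 1 FPKM, as the members were, so these shares compare unlike sets. No 2 different motifs overlapped in a member window (0 windows). A match is a description of the letters and not a bound site.

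FPKM values of mitoribosomal transcripts were lower on average in *Junb*-deficient Treg cells. The difference was small, and few single genes passed the test. The log2 difference of log2(FPKM + 1), *Junb*-deficient minus control, was negative for 71 of 75 members, against 56.0% of all genes tested. Its median was -0.35 over members (quartiles -0.44 and -0.25), against -0.05 over all genes tested. FPKM totals differed between libraries. Members' share of the total was 0.385% to 0.492% in *Junb*-deficient and 0.468% to 0.535% in control libraries, which overlap. After median-ratio and quantile scaling the median over members was -0.31 and -0.25, against -0.01 and 0.01 over all genes tested. A gene is called here as having risen or fallen when its unadjusted p in limma was below 0.05 and its log2 difference beyond 0.5, the thresholds of the study. By that rule 3 members fell (*Mrps12*, *Mrpl12* and *Mrps14*), against 2.89% of all genes tested, and 0 rose, against 1.67%. A further member, *Mrpl51*, passed on p alone, with a log2 difference of -0.45. After Benjamini-Hochberg adjustment over all genes, 0 members passed at 0.05 in limma, as did 0% of all genes tested. An unadjusted p below 0.05 was found for 4 of 75 members and for 636 of 11781 genes tested, which are near the same share. In bulk RNA, fewer cells of a type and less of the RNA per cell cannot be told apart.

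*Mrps12* is the counterpart of bacterial S12, the protein at the decoding centre where codon and anticodon are matched. It lies on chromosome 7 from 29524660 to 29526839 in mm9, on the minus strand, with 3 exons and no exonic overlap with another gene. *Mrps12* was at 27.3, 27.7 and 26.2 FPKM in *Junb*-deficient 1, 2 and 3, against 41.7, 58.4 and 57.7 FPKM in control 1, 2 and 3. The *Junb*-deficient libraries lay close together, and the highest of them was well below the lowest control. Its means were 27.1 ± 0.772 FPKM in *Junb*-deficient and 52.6 ± 9.45 FPKM in control libraries (SD, n = 3 each), with a log2 difference of -0.92 (SE 0.19, adjusted p = 0.54 in limma). Within the numbers 1, 2 and 3, the *Junb*-deficient level was 65.6%, 47.4% and 45.4% of control. *Sars2*, the mitochondrial seryl-tRNA synthetase, starts beside *Mrps12* on the other strand and was named for that position. *Sars2* was at 5.61, 5.42 and 6.51 FPKM in *Junb*-deficient libraries, against 7.08, 5.20 and 4.79 FPKM in control libraries, which overlap, with a log2 difference of 0.04 (SE 0.21).

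*Mrpl12* is a protein of the L7/L12 stalk, which recruits translation factors, and is also known to bind the mitochondrial RNA polymerase. It lies on chromosome 11 from 120345927 to 120350379 in mm9, on the plus strand, and a long non-coding RNA of 0.145 FPKM on average overlaps its exons on the other strand. *Mrpl12* was at 31.4, 37.2 and 41.8 FPKM in *Junb*-deficient 1, 2 and 3, against 44.2, 51.3 and 67.5 FPKM in control 1, 2 and 3. Every *Junb*-deficient library was below every control, though the highest of the first and the lowest of the second were near each other. The log2 difference was -0.54 (SE 0.21, adjusted p = 0.83 in limma). *Mrpl10*, which anchors the stalk, was at 24.8, 35.8 and 39.2 FPKM in *Junb*-deficient libraries, against 28.8, 40.0 and 44.2 FPKM in control libraries. *Mrpl11*, at the base of the stalk, was at 23.7, 38.1 and 33.3 FPKM in *Junb*-deficient libraries, against 27.2, 46.3 and 56.6 FPKM in control libraries. Both overlapped between genotypes, with log2 differences of -0.18 and -0.41 that did not pass.

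*Mrps14* is the counterpart of bacterial S14, in the head of the small subunit. It lies on chromosome 1 from 162125346 to 162132301 in mm9, on the plus strand, and overlaps no exon of another gene. *Mrps14* was at 24.3, 27.4 and 24.7 FPKM in *Junb*-deficient 1, 2 and 3, against 28.4, 48.1 and 37.5 FPKM in control 1, 2 and 3. The groups did not overlap, but control 1 was close to *Junb*-deficient 2. The log2 difference was -0.53 (SE 0.22, adjusted p = 0.83 in limma). *Mrpl51*, specific to mitochondria, was at 20.1, 16.3 and 18.4 FPKM in *Junb*-deficient 1, 2 and 3, against 21.5, 27.1 and 27.2 FPKM in control 1, 2 and 3. Its groups did not overlap either, and it did not reach the size threshold.

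**Figure D1:**
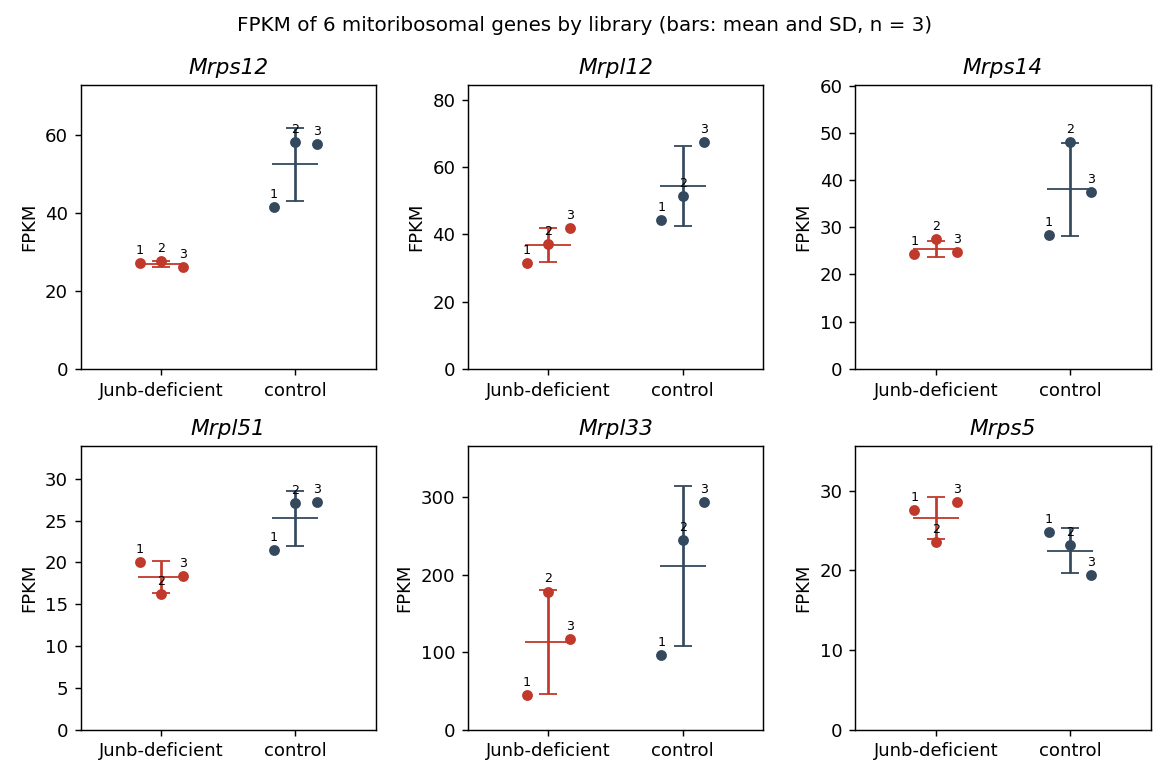
FPKM of 6 mitoribosomal genes in each library, *Junb*-deficient left of control, with the library numbers beside the points and the mean and SD of 3 libraries as bars. *Mrps12*, *Mrpl12*, *Mrps14* and *Mrpl51* do not overlap between genotypes, while *Mrpl33* and *Mrps5* do.

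In 12 members (16.0%), 8 Mrpl and 4 Mrps, every *Junb*-deficient library was below every control, against 6.36% of all genes tested. In 0 members was every *Junb*-deficient library above every control, against 4.58% of all genes. Besides the 4 genes above, the 12 were *Mrpl54*, *Mrpl35*, *Mrpl2* and *Mrps30*, and *Mrpl9*, *Mrpl4*, *Mrpl37* and *Mrps7*, which are listed after their values were seen. *Mrpl2*, the counterpart of bacterial L2 near the catalytic centre, was at 21.9, 26.9 and 29.3 FPKM in *Junb*-deficient libraries, against 29.4, 39.4 and 35.2 FPKM in control libraries, where the nearest values almost touch. *Mrpl54* was at 44.3, 55.7 and 51.0 FPKM in *Junb*-deficient libraries, against 60.6, 63.0 and 97.5 FPKM in control libraries. *Mrps30* was at 28.3, 22.7 and 22.5 FPKM in *Junb*-deficient libraries, against 29.6, 37.6 and 28.6 FPKM in control libraries.

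The largest difference belonged to a gene that did not pass. *Mrpl33*, the counterpart of bacterial L33, was at 44.7, 178 and 117 FPKM in *Junb*-deficient 1, 2 and 3, against 96.0, 245 and 293 FPKM in control 1, 2 and 3. The level in both libraries numbered 1 was below the others of its genotype, the groups overlapped, and the log2 difference of -0.95 had an SE of 0.59 (adjusted p = 0.84 in limma). *Mrpl33* shares exonic sequence on the same strand with *Bre*, so its reads may be divided between them. *Mrpl21* was at 28.2, 32.4 and 36.6 FPKM in *Junb*-deficient libraries, against 32.4, 60.8 and 55.4 FPKM in control libraries, with a log2 difference of -0.56 (SE 0.26), which did not pass.

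Only 4 members had a positive difference, *Mrps5*, *Mrpl38*, *Mrps18b* and *Mrps2*, and each overlapped between genotypes. *Mrps5*, the counterpart of bacterial S5 at the channel where messenger RNA enters, was at 27.6, 23.6 and 28.5 FPKM in *Junb*-deficient libraries, against 24.9, 23.2 and 19.4 FPKM in control libraries. Its log2 difference was 0.23 (SE 0.17, adjusted p = 0.85 in limma), and it was the 1 member that was higher in *Junb*-deficient cells within all 3 numbers. *Mrpl38* had a log2 difference of 0.16, *Mrps18b* of 0.15 and *Mrps2*, the counterpart of bacterial S2, of 0.09.

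The most abundant members differed strongly among libraries. *Mrpl52*, the highest with a mean of 360 FPKM, was at 186, 397 and 336 FPKM in *Junb*-deficient 1, 2 and 3, against 228, 432 and 577 FPKM in control 1, 2 and 3. *Mrps16*, the counterpart of bacterial S16, was at 55.0, 123 and 112 FPKM in *Junb*-deficient libraries, against 68.2, 155 and 226 FPKM in control libraries. *Mrpl24* was at 66.8, 140 and 107 FPKM in *Junb*-deficient libraries, against 71.2, 148 and 184 FPKM in control libraries. In these 3 genes the libraries numbered 1 were the lowest of their genotype, and the groups overlapped. *Mrps21*, the counterpart of bacterial S21, was at 52.0, 86.1 and 82.1 FPKM in *Junb*-deficient libraries, against 75.5, 128 and 119 FPKM in control libraries, and was at 67.3% to 68.9% of control within each number. *Mrps24*, the counterpart of bacterial S3, was at 47.7, 74.2 and 67.2 FPKM in *Junb*-deficient libraries, against 53.1, 106 and 129 FPKM in control libraries. *Mrps10*, the counterpart of bacterial S10, was at 12.7, 13.2 and 13.5 FPKM in *Junb*-deficient libraries, against 12.4, 18.9 and 25.6 FPKM in control libraries, with control 1 at the level of the *Junb*-deficient libraries. These had log2 differences of -0.54, -0.53 and -0.45 that did not pass. Of the low members, *Mrpl1*, *Mrpl47*, *Mrps27* and *Mrps31* had log2 differences of -0.44, -0.30, -0.18 and -0.36, and *Mrpl35*, with the lowest mean of the Mrpl genes, was at 4.75, 3.99 and 4.79 FPKM in *Junb*-deficient libraries, against 4.80, 7.73 and 7.10 FPKM in control libraries. Member means, which are per length, spanned a factor of 122 down to *Mrps36*, at 2.80, 3.19 and 2.40 FPKM in *Junb*-deficient libraries and 4.08, 3.61 and 1.59 FPKM in control libraries.

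**Figure D2:**
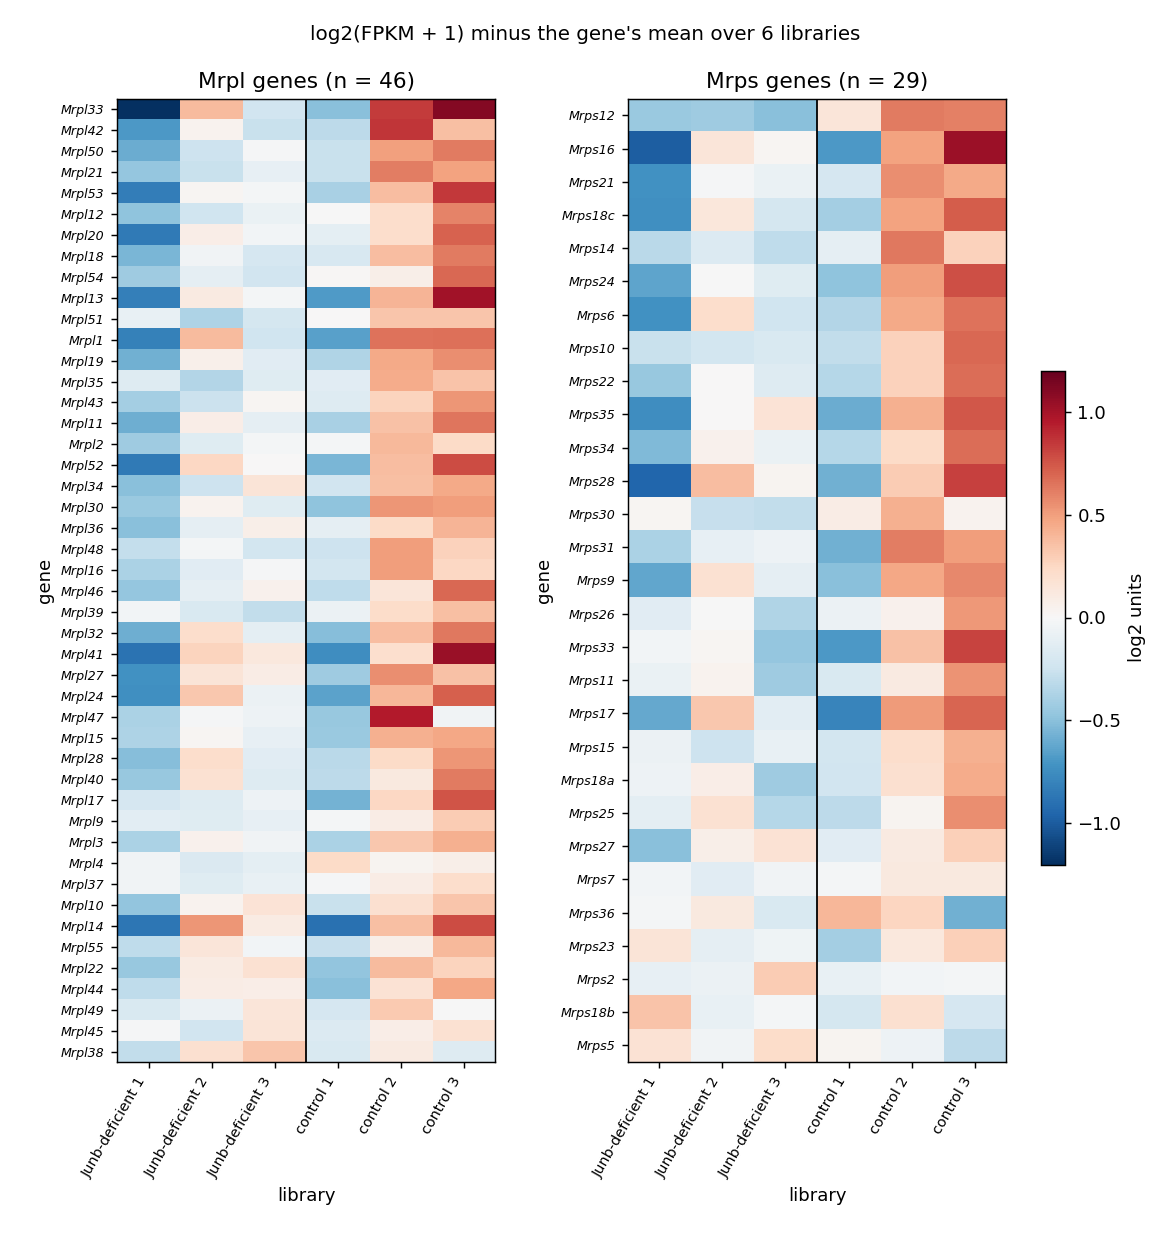
log2(FPKM + 1) of each member minus its mean over the 6 libraries, for 46 Mrpl genes (left) and 29 Mrps genes (right), ordered by difference, with *Junb*-deficient libraries left of the line and control libraries right of it. Control 2 and 3 are above the mean in most rows, and *Junb*-deficient 1 and control 1 are mostly below it.

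The large and small subunit did not separate. The median log2 difference was -0.35 over Mrpl genes, 45 of 46 of them lower, and -0.36 over Mrps genes, 26 of 29 lower. The medians differed by 0.01, while the difference of the subunit medians within a library varied between libraries by an SD of 0.21. Of the called members 1 was Mrpl and 2 were Mrps, where 2.89% of all genes tested fell. The median FPKM of Mrpl genes was 23.5, 32.9 and 31.7 in *Junb*-deficient 1, 2 and 3, against 27.7, 39.7 and 43.9 in control 1, 2 and 3. For Mrps genes it was 27.1, 27.7 and 24.7 in *Junb*-deficient libraries, against 24.9, 34.6 and 39.0 in control libraries. The ratio of the Mrpl to the Mrps median was 0.866 in *Junb*-deficient 1 and 1.11 to 1.28 in the other 5 libraries. With *Mrps30* and *Mrps18a* counted with the large particle, the medians remained -0.35 and -0.36. *Mrps18a* was at 27.1, 30.0 and 20.8 FPKM in *Junb*-deficient libraries, against 23.9, 32.4 and 39.0 FPKM in control libraries, which overlap.

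By origin, all 3 genes that fell were among the 45 members with a bacterial counterpart, and 0 were among the 29 specific to mitochondria. Of all genes tested 2.89% fell, and so few calls cannot tell the origins apart. The medians of these lists were -0.36 and -0.34, so that the lists themselves lay together. The 3 genes named Mrps18 differed in sign, and of them *Mrps18c* alone was counted among those with a bacterial counterpart. *Mrps18c* was at 28.2, 52.5 and 41.1 FPKM in *Junb*-deficient libraries, against 35.5, 67.1 and 79.6 FPKM in control libraries, a log2 difference of -0.54 (SE 0.35) that did not pass. *Mrps18b* was at 20.1, 14.7 and 15.4 FPKM in *Junb*-deficient libraries, against 13.5, 18.1 and 13.5 FPKM in control libraries. *Mrpl44*, related to ribonuclease III, and *Mrpl45*, which helps to hold the mitoribosome at the inner membrane, had log2 differences of -0.09 and -0.06. *Mrpl41*, at 29.0, 65.5 and 59.3 FPKM in *Junb*-deficient and 31.9, 62.5 and 113 FPKM in control libraries, had one of -0.33 (SE 0.49), and control 3 was its highest library by far.

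The size of the difference depended on the library number. The median FPKM over the 75 members was 24.3, 29.2 and 27.9 in *Junb*-deficient 1, 2 and 3, against 25.5, 37.6 and 40.2 in control 1, 2 and 3. Within number 1 the median log2 difference was -0.13, within number 2 -0.28 and within number 3 -0.64, against 0.01, -0.12 and -0.03 over all genes tested. Of the 75 members, 53, 67 and 69 were lower in the *Junb*-deficient library of numbers 1, 2 and 3. In 46 members (61.3%) this held in all 3 numbers, against 22.3% of all genes tested. The libraries of a number are not known to be pairs, so this count rests on matching them by number. Control 3 was the highest library for 52 members, and *Junb*-deficient 1 the lowest for 43. Members' FPKM made up 0.385%, 0.477% and 0.492% of the total in *Junb*-deficient 1, 2 and 3. In control 1, 2 and 3 the share was 0.468%, 0.482% and 0.535%, so that the ranges overlap and the shares within number 2 were close. FPKM totals also differed within the numbers, at 528608, 657992 and 575628 in *Junb*-deficient and 496684, 811691 and 862049 in control libraries. The part of these totals in the differences by number was not tested.

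**Figure D3:**
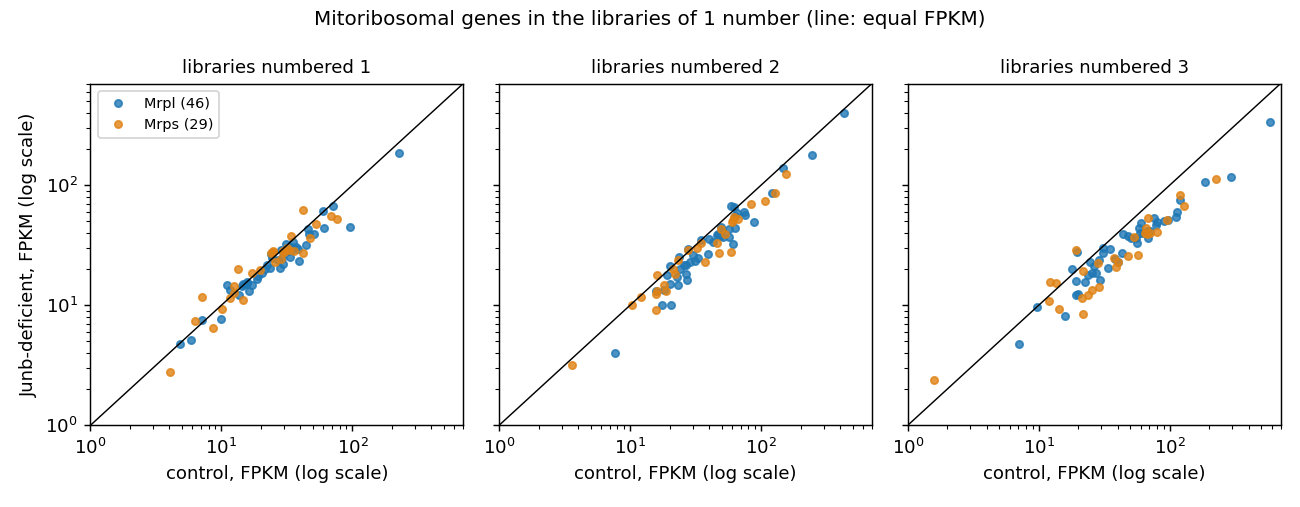
FPKM of each member in the *Junb*-deficient library (vertical, log scale) against the control library (horizontal, log scale) of the same number, with Mrpl and Mrps genes in separate colours and a line of equal FPKM. Points lie near the line in number 1, where 53 of 75 are below it, and further below it in number 3, where 69 are.

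The libraries numbered 1 also had lower FPKM of these transcripts. The FPKM totals of these libraries were the lowest too. Members made up 0.385% of the total in *Junb*-deficient 1 and 0.468% in control 1, against 0.477% to 0.535% in the other libraries. In 46 of 75 members both libraries numbered 1 were below all 4 others, against 23.3% of all genes tested, and the median log2 difference of number 1 from the others was -0.56, against -0.04 over all genes. The activation and myeloid sums given above were higher in these libraries. No label states a pairing, and deviations from the genotype means set only number 1 apart. *Junb*-deficient 2 correlated with control 2 at 0.42 and with control 3 at 0.41, and *Junb*-deficient 3 with control 3 at 0.24. A fit with the number as a replicate block was made, which takes pairing by number as given. In it 16 members fell, 9 Mrpl and 7 Mrps, against 7.2% of all genes tested, 0 rose, against 3.58%, and 0 passed after adjustment (smallest adjusted p = 0.11 in limma, for *Mrps12*). Among the 16 were *Mrps12*, *Mrpl12* and *Mrps14*, and also *Mrpl33*, *Mrps16*, *Mrps18c*, *Mrps21*, *Mrps24*, *Mrpl21* and *Mrpl54*. The remaining 6, named after their values were seen, were *Mrpl18*, *Mrpl20*, *Mrpl42*, *Mrpl50*, *Mrpl53* and *Mrps6*. Without both libraries numbered 1, 33 members fell, against 13.2% of all genes tested, the median was -0.48, and *Mrps12* passed after adjustment (log2 difference -1.08, adjusted p = 0.0309 in limma), as did 2.26% of all genes tested (262 of 11572), with 2 libraries a group.

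Single libraries moved these values. Without control 1, 39 members fell, against 13.1% of all genes tested, with a median of -0.61. With control 2, control 3 or *Junb*-deficient 2 left out, 1 member fell, against 1.88%, 1.73% and 2.2% of all genes tested, and the medians were -0.26, -0.17 and -0.43. With *Junb*-deficient 1 left out, 2 members fell, against 2.8% of all genes tested, and the median was -0.22. With *Junb*-deficient 3 left out, 2 members fell, against 2.48% of all genes tested. *Mrps12* passed without each of the 6 libraries. *Mrpl12* kept its call when control 1 or *Junb*-deficient 3 was left out and lost it in the other 4 cases. *Mrps14* kept it when control 1 was left out and lost it in the other 5. After median-ratio scaling 70 members were lower, and after quantile scaling 69, with *Mrps12* the only member that fell in either, against 2.43% and 2.23% of all genes tested.

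Mitoribosomal transcripts are short, with a median annotated exon length of 1693 bases, against 3341 bases over all genes tested, and differences varied with length over all genes. In 4 length classes of about equal size, the median log2 difference over all genes was -0.25, -0.11, -0.00 and 0.12 in order of length. Members in the same classes (41, 16, 9 and 9 genes) had medians of -0.36, -0.31, -0.30 and -0.38, below all genes in each. With each library's trend on length removed, 64 of 75 members were lower, the median was -0.24 against -0.06 over all genes, and 2 members fell (*Mrps12* and *Mrps14*), against 2.61% of all genes tested. Annotated exons include rare long isoforms, so the length of some members, such as the 7473 bases of *Mrpl33*, may exceed that of their usual transcript.

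**Figure D4:**
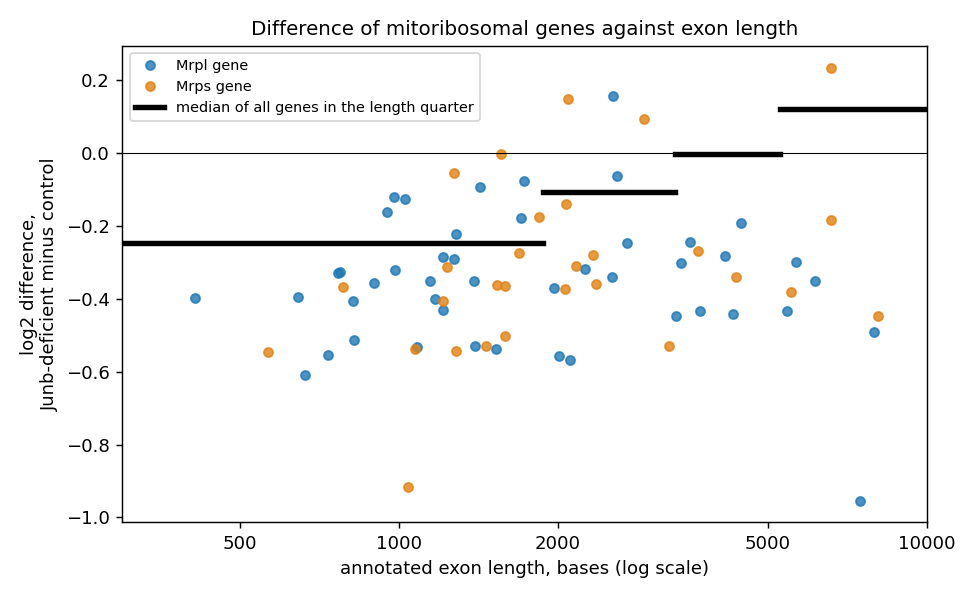
Log2 difference, *Junb*-deficient minus control, of each member against annotated exon length in bases (log scale), with the median of all genes tested in 4 length classes as black lines. Over all genes the median goes up with length, -0.25 to 0.12, while the members stay mostly between -0.6 and -0.1.

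Other proteins of the mitoribosome carry names outside the family. All 7 of a fixed list were lower, against 56.0% of all genes tested, with a median of -0.26. Of the 7, 0 passed, where 2.89% of all genes tested fell and 1.67% rose. *Chchd1*, a small subunit protein, was at 31.5, 69.4 and 46.4 FPKM in *Junb*-deficient libraries, against 36.5, 79.4 and 108 FPKM in control libraries, a log2 difference of -0.53, and fell with the replicate block and without both libraries numbered 1 (log2 difference -0.70). *Dap3*, a GTP-binding protein of the small subunit also known from cell death, was at 58.3, 82.6 and 63.8 FPKM in *Junb*-deficient libraries, against 59.5, 105 and 84.1 FPKM in control libraries. *Ptcd3*, *Aurkaip1*, *Gadd45gip1*, *Mrp63* and *Ict1*, the last a peptidyl-tRNA hydrolase built into the large subunit, had log2 differences of -0.16, -0.31, -0.14, -0.27 and -0.21.

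Lists of genes for building and serving the mitoribosome had medians nearer 0 with all 6 libraries and no correction for length. Of all genes tested 2.89% fell, 1.67% rose and 56.0% were lower. Of 22 assembly factors 0 passed and 19 were lower (86.4%), with a median of -0.21. *Ddx28*, a helicase of large subunit assembly, was at 6.35, 4.29 and 7.61 FPKM in *Junb*-deficient libraries, against 9.60, 8.22 and 8.34 FPKM in control libraries, which do not overlap (log2 difference -0.48, SE 0.23). *Mpv17l2* had a log2 difference of -0.39 and *Rnmtl1*, a methyltransferase of the large ribosomal RNA, of -0.30. Of 15 translation factors, 0 passed and 11 were lower (73.3%), with a median of -0.10. *Pdf*, the peptide deformylase, *Tufm*, the elongation factor that brings aminoacyl-tRNA, and *Mtif2*, the initiation factor, had log2 differences of -0.37, 0.29 and -0.29. *Tufm* was near the minimum level, at 3.54, 2.28 and 3.17 FPKM in *Junb*-deficient libraries, against 2.67, 2.55 and 1.63 FPKM in control libraries (SE 0.26). Genes of these lists are longer, with median exon lengths of 2871 and 3261 bases, against 1693 bases for the members. With the trend on length removed, the medians were -0.20 for assembly and -0.12 for translation factors, against -0.24 for the members. Within number 2 they were -0.25 and -0.36, against -0.28, and within numbers 1 and 3 they were nearer 0 than those of the members. The difference between these lists and the members was not tested.

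The RNAs that the particle contains or translates come from mitochondrial DNA. Of 15 such genes 3 fell, 0 rose and 14 were lower, against 2.89%, 1.67% and 56.0% of all genes tested, with a median of -0.34. The small ribosomal RNA *mt-Rnr1* fell, at 401, 438 and 309 FPKM in *Junb*-deficient 1, 2 and 3, against 502, 863 and 690 FPKM in control 1, 2 and 3 (log2 difference -0.82, SE 0.29, adjusted p = 0.83 in limma). The groups did not overlap. The large ribosomal RNA *mt-Rnr2* was at 623, 702 and 344 FPKM in *Junb*-deficient libraries, against 627, 1118 and 704 FPKM in control libraries, a log2 difference of -0.57 (SE 0.38) that did not pass. The others that fell, *mt-Atp8* and *mt-Co3*, were below 10 FPKM in every library, beside *mt-Co1* at 7221 to 10327 FPKM in *Junb*-deficient and 6549 to 11770 FPKM in control libraries. Since 4 of the 15 genes were listed at 0 in at least 1 library, as *mt-Atp8* was in *Junb*-deficient 2, the values of the low ones are uncertain estimates. Mitochondrial ribosomal RNAs reach a polyadenylated library only in part, so their FPKM is no measure of the number of particles.

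Of 12 tested regulators of mitochondrial transcription and biogenesis, 0 passed, where 2.89% of all genes tested fell and 1.67% rose. Of the 12, 7 were lower (58.3%), against 56.0% of all genes tested, with a median of -0.03. *Tfam*, which packages mitochondrial DNA and starts its transcription, was at 36.7, 53.3 and 54.1 FPKM in *Junb*-deficient libraries, against 49.5, 90.4 and 98.6 FPKM in control libraries. Its groups overlapped, with a log2 difference of -0.68 (SE 0.30). It fell with the replicate block, and without both libraries numbered 1 its log2 difference was -0.80 (adjusted p = 0.0499 in limma). *Polrmt*, the mitochondrial RNA polymerase, was at 12.9, 13.7 and 12.1 FPKM in *Junb*-deficient libraries, against 10.5, 30.7 and 31.0 FPKM in control libraries. Within number 1 *Polrmt* was higher in *Junb*-deficient cells and within numbers 2 and 3 lower (log2 difference -0.71, SE 0.39), and it too fell with the replicate block. Without both libraries numbered 1 it was lower and passed after adjustment (adjusted p = 0.0300 in limma). *Pprc1*, a coactivator, had a log2 difference of 0.38 and did not pass.

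With all 6 libraries, the members' median lay between those of complex I and the cytosolic ribosome. Of 36 complex I subunits 3 fell (*Ndufc2*, *Ndufv3* and *Ndufa1*), 0 rose and 35 were lower, against 2.89%, 1.67% and 56.0% of all genes tested, with a median of -0.45. Of 78 cytosolic ribosomal proteins 0 passed and 55 were lower, with a median of -0.19. Their median level was 72.2, 76.2 and 48.6 FPKM in *Junb*-deficient libraries, against 32.5, 79.6 and 86.5 FPKM in control libraries. Some, such as *Rpl9* and *Rps27a*, had means of only 14.7 and 14.3 FPKM. How well FPKM measures these genes was not tested. Within numbers 1, 2 and 3, the median log2 difference of cytosolic ribosomal proteins was 0.46, -0.46 and -0.85, and that of complex I was -0.20, -0.37 and -0.81. The cytosolic proteins thus had opposite signs in number 1 and in the other numbers, whereas mitoribosomal medians were negative in each. With the replicate block, 15 complex I and 7 cytosolic genes fell, against 7.2% of all genes tested. Without both libraries numbered 1, 22 complex I and 43 cytosolic genes fell, against 13.2% of all genes tested, and the order of the medians changed to -0.48 for the members, -0.57 for complex I and -0.60 for the cytosolic ribosome. These lists share all libraries with the members, and their differences from them were not tested.

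**Figure D5:**
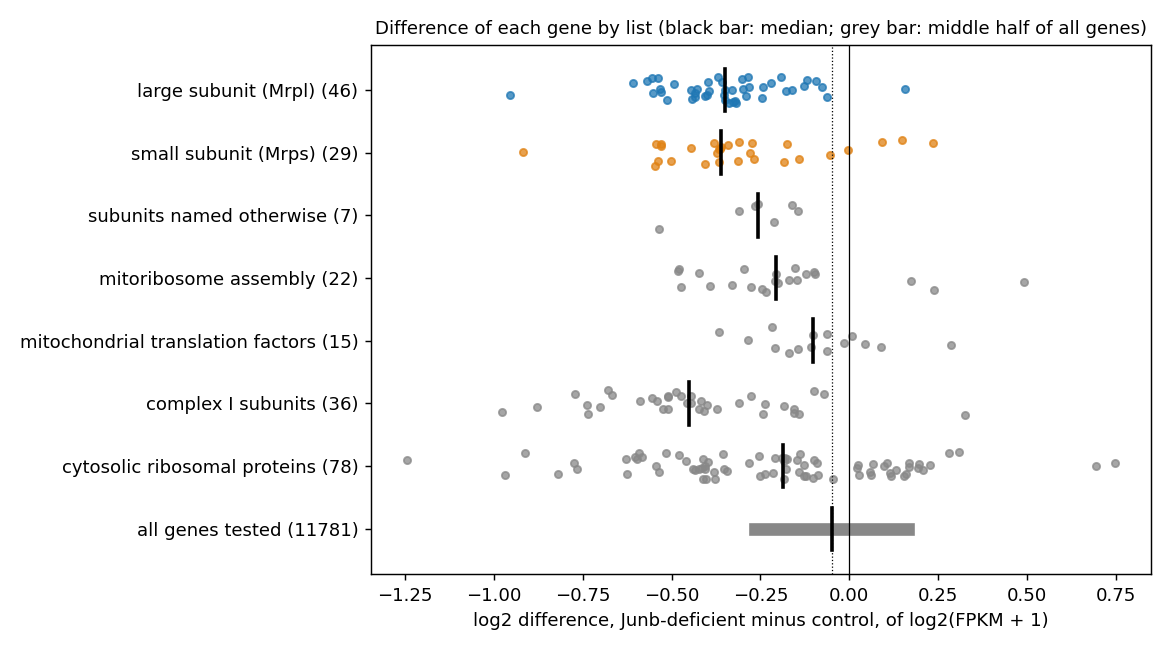
Log2 difference of log2(FPKM + 1), *Junb*-deficient minus control, of each gene, by list, with the number of genes in brackets, a black bar at each median and a grey bar over the quartiles of all genes tested. Medians run between -0.45 for complex I and -0.10 for translation factors, with -0.35 and -0.36 for the mitoribosomal subunits.

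The 75 genes lie on 17 chromosomes. In 26 of them an exon overlaps an exon of another gene, mostly on the other strand. How counting treated the strand was not stated, so reads of such pairs may have been shared. *Mrpl46* and *Mrps11* overlap each other on chromosome 7 in mm9, from 85920122 to 85928417 on the minus strand and from 85928005 to 85937875 on the plus strand. *Mrpl46* was at 16.6, 21.5 and 24.1 FPKM in *Junb*-deficient libraries, against 18.6, 25.9 and 38.0 FPKM in control libraries. *Mrps11* was at 18.4, 20.1 and 14.3 FPKM in *Junb*-deficient libraries, against 17.0, 21.1 and 28.9 FPKM in control libraries. Both overlapped between genotypes, with log2 differences of -0.35 and -0.31, and control 3 was the highest library of each.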

How the data were processed

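The authors made the deposited FPKM values with TopHat2 2.2.1 and Cufflinks on mm9, per the submitters' processing notes, using libraries of a strand-specific polyadenylated RNA kit. Scaling beyond FPKM, the annotation and the strand setting: not given in the sources used here. Positions and exon lengths came from the GENCODE annotation of mm9, which held all 37305 gene identifiers. For number 1, the table's columns were matched by elimination, as those sample titles are unnumbered.

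Genes with a mean of at least 1 FPKM were tested on log2(FPKM + 1), so differences of low genes are understated, with limma 3.58.1 (R 4.3.3, mean-variance trend, all 6 libraries, 2-sided) and Benjamini-Hochberg adjustment over all 11781. The test was checked on simulated data, with noise drawn independently for each gene and library. That check does not show how the test behaves where many genes shift together in a library. Tables were made with pandas 2.3.3 and numpy 2.4.6 in Python 3.11.15, and figures with matplotlib 3.10.9. Upstream stretches came from RefSeq (GRCm38.p6), matched by symbol.

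The members, the lists and the tests were chosen with earlier results of these data known. Genes are named by rule. It takes the 5 members with the smallest p in each subunit and direction, called members, the 3 highest and 3 lowest by mean in each subunit, members of special role, all subunits named otherwise, and 3 genes of smallest p in every other list.

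Pairing by number was assumed for the replicate block, and in the data it was clear only for number 1. Deviations from the genotype means, correlated across 11781 genes, gave 0.57, 0.42 and 0.24 for libraries sharing a number, and -0.53 to 0.41 for the others. The 0.41 was for *Junb*-deficient 2 and control 3, above the 0.24 of number 3. No label states the pairing.

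Alternatives were a pseudocount of 0.1, no filter, a mean of at least 5 FPKM, quantile scaling, median-ratio scaling, no trend in limma, the number as a replicate block, removal of a loess curve on exon length (span 0.5) in every library, both of the last together, both libraries numbered 1 left out, and each library left out in turn.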

Additional observations from a re-analysis of the deposited data

How the results depend on the processing

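The count of members that fell, 3, was 1 with median-ratio scaling, 1 with quantile scaling, 16 with the replicate block, 6 with the replicate block and length correction together, 33 without both libraries numbered 1, and 1 to 39 when each library was left out in turn. The share of all genes tested that fell, 2.89%, was 2.43%, 2.23%, 7.2%, 5.23%, 13.2% and 1.73% to 13.1% in the same alternatives. Over all genes the quantile scaling gave 257 that rose and 263 that fell, against 197 and 340. The count that rose was 0 in every alternative. The median log2 difference of members ranged between -0.61 and -0.17 when each library was left out. The other alternatives moved it by less than the SD between libraries of 0.26. The difference between subunit medians stayed within the SD of 0.21 in every alternative. The cause of these changes was not tested. The count of members that were lower, 71, was 61 to 70 when each library was left out in turn, against 52.2% to 57.8% of all genes tested. Of 32 named members, 1 that was not called (*Mrpl45*) changed sign with quantile scaling and 0 with median-ratio scaling. With length correction 2 changed sign, and 1 to 4 did when each library was left out in turn. Without a library in turn, its group is left with 2. The depth behind the FPKM values is unknown, which limits how low values such as those of *Mrps36* can be read.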
